A study of Mus musculus with 6 samples.

Results

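Odc1, Oaz1, Oaz2, Azin1, Amd1, Srm, Sms, Sat1 and Smox are 9 genes of polyamine metabolism, chosen by name because several of their messages are known for control during translation. All 9 had matched transcripts among the 51912 genes with one, and all 9 passed the filter on low counts that left 13231 genes to test. They were measured in poly(A) RNA of the mouse embryonic stem cell line E14, grown on gelatin with leukemia inhibitory factor, which keeps them undifferentiated. Every culture was given cycloheximide, which holds elongating ribosomes on their messages, at 100 µg/mL for 3 minutes before harvest. Lysates were spun through a sucrose cushion to pellet ribosomes. The resuspended pellets were then divided, with RNA extracted directly from a portion (3 pellet libraries) and from a portion that bound to and was eluted from a cysteine-charged resin (3 eluate libraries). This second step defines the ribosome purification named RAPIDASH, and the comparison asks how the resin step alters the messages recovered beyond the cushion alone. The labels number both kinds of library 1 to 3 without saying that a number marks portions of the same pellet, or that numbers are separate cultures. The p-values then weigh a difference only against the spread of these libraries, which may be technical.

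Polyamines (putrescine, spermidine and spermine) are small cationic molecules that bind RNA and are needed for growth. Ornithine decarboxylase makes putrescine, S-adenosylmethionine decarboxylase supplies the aminopropyl donor, and the synthases Srm and Sms build spermidine and spermine. Antizymes bind ornithine decarboxylase and send it to the proteasome, antizyme inhibitor takes antizyme away, and polyamines raise antizyme synthesis by favouring a shift of reading frame on its message.

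The shift site is the feature that the antizyme messages share, and it bears on how they were quantified. GENCODE release 21 describes each antizyme with a transcript that keeps every base (Oaz1-205, Oaz2-203) and with a transcript in which 1 base at the site is left out, so that the coding region reads through (Oaz1-207, Oaz2-206). The estimated counts used here came from the latter kind. The stretches below are 85 and 84 bases of those transcripts. Capitals in Oaz1-205 and Oaz2-203 mark the shift codon, the stop codon after it and the next base. In Oaz1-207 and Oaz2-206 they mark the same place with 1 base left out, so that no stop codon stands there.
Oaz1-205: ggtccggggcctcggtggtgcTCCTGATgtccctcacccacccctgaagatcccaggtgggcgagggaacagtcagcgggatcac
Oaz1-207: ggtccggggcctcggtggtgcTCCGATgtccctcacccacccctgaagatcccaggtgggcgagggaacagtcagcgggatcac
Oaz2-203: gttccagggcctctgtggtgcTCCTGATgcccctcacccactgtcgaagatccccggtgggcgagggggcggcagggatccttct
Oaz2-206: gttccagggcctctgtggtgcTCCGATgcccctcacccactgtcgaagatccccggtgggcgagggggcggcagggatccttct
The capitals are the same letters in both genes, and 62 of the 85 bases are shared. The stop codon is codon 69 of the Oaz1 reading frame and codon 33 of the Oaz2 frame. Oaz1 and Oaz2 are 2 of 5 genes, among the 12233 tested genes with a coding main transcript, whose main transcript has a gap of 1 or 2 bases between exons.

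The Amd1 message carries a short upstream open reading frame, known to hold back translation of the enzyme when polyamines are plentiful. It spans bases 12 to 32 of Amd1-201, near the start of a 5′ untranslated region of 328 nucleotides, with its start and stop codons in capitals.
Amd1: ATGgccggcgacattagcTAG
It holds 6 codons before the stop. The same 21 bases stand at 13 to 33 of Amd2-201, a near copy of the gene.

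Of the 9 messages, 4 were higher in eluates (Oaz1, Srm, Smox and Odc1), 3 were lower (Azin1, Amd1 and Sms) and 2 had no call (Oaz2 and Sat1), by edgeR's quasi-likelihood test at an adjusted p under 0.05 over all genes tested. The background was high: 52.7% of all genes tested were called, 24.5% higher and 28.2% lower. The median log2 fold change of the 9 was 0.16, beside 0.0035 over all genes tested, whose 10th and 90th percentiles were -0.96 and 0.58. In CPM (counts scaled by library totals and edgeR's TMM factors, which adjust those totals for composition), every eluate lay above every pellet for 5 members, beside 29.1% of all genes tested, and below every pellet for 3, beside 31.2%; both directions together held 60.3% of all genes. Sat1 was the member whose groups overlapped on this scale. On library totals alone, without TMM factors, Oaz2 overlapped too, which left 4 members above, beside 28.1% of all genes, and 3 below, beside 30.5%. These values are relative to all poly(A) RNA of a library.

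**Figure D1:**
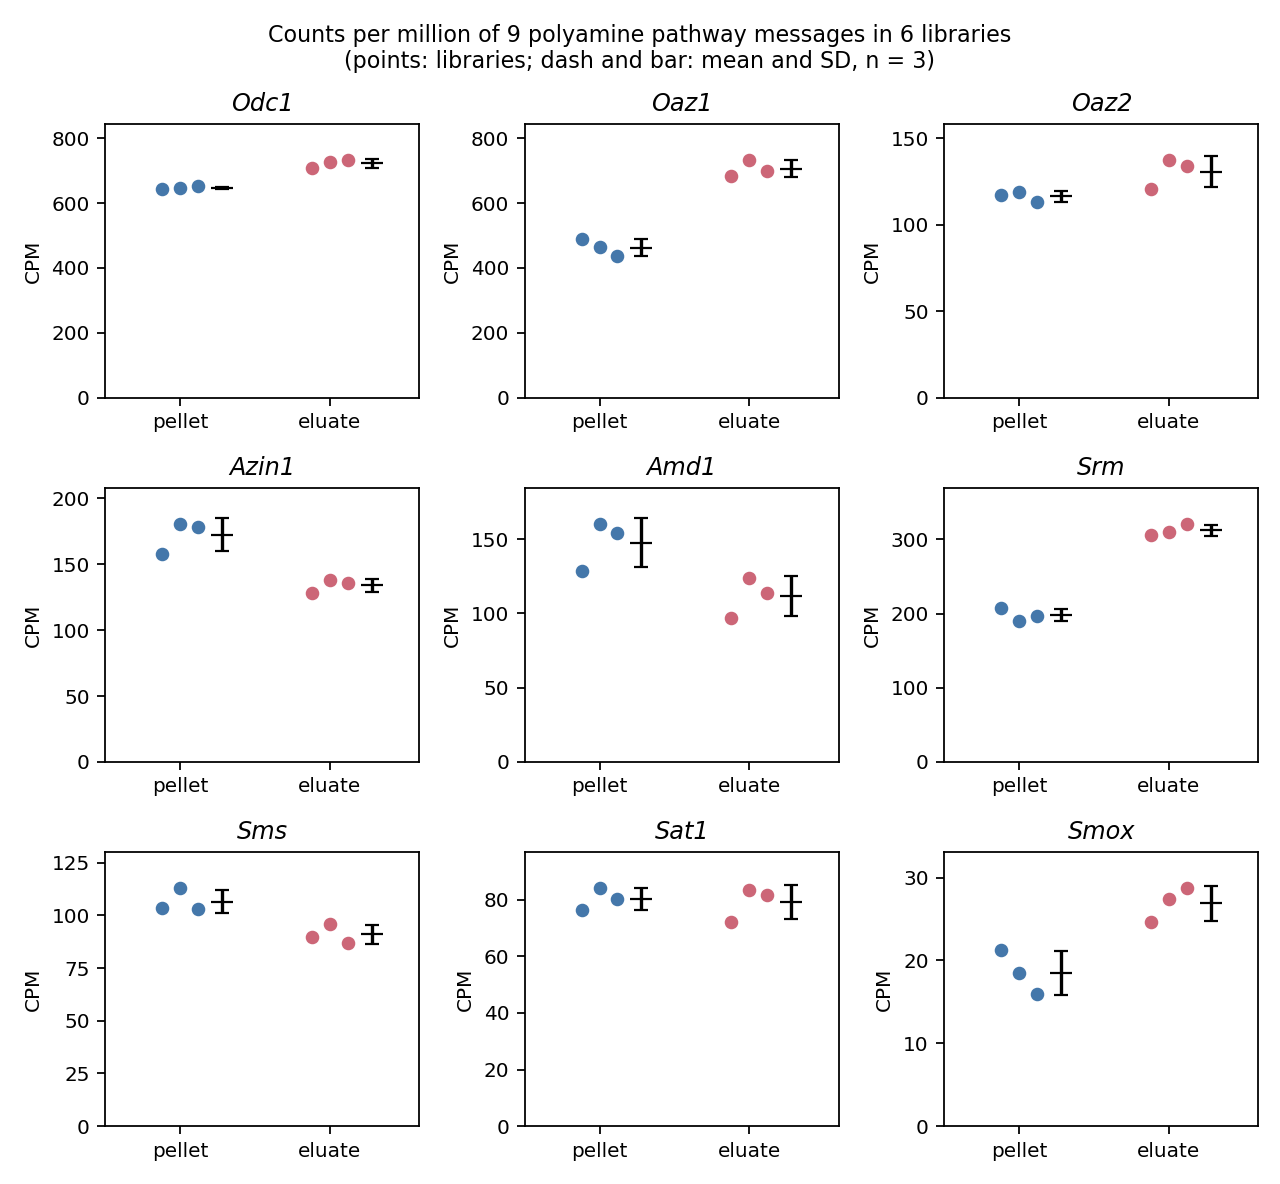
CPM with TMM factors (y axis from 0) of each of the 9 messages in 3 pellet and 3 eluate libraries. Points are libraries, the dash and bar are the mean and SD (n = 3), and Sat1 is the panel in which the groups overlap.

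GC content moved with the result. Over the 9 members the log2 fold change and the GC content of the transcripts had a Spearman rho of 0.97, and over all genes tested 0.71, given as descriptions of values that share the same 6 libraries. The members with over 50% GC all had positive changes and those under 45% GC all had negative ones. In a further fit, a smooth curve over GC content and length was removed from each library before the test, and its value stands beside each member below. In that corrected fit 4 members were higher and 0 lower, beside 19.0% and 15.8% of all genes, and the 4 were Azin1, Amd1, Sms and Sat1, none of which was higher without it. With the trend in GC alone removed, 6 were higher and 0 lower, beside 22.3% and 18.9%. Whether GC content or length caused any change was not tested.

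Ornithine decarboxylase, Odc1, catalyses the first and rate-limiting step of the pathway. Odc1 had 643, 646 and 651 CPM in pellets 1 to 3 and, in eluates of those numbers, 708, 726 and 734 CPM. All 3 eluates were above all 3 pellets, by a small margin. The means were 647 ± 4.39 and 722 ± 13.4 CPM (SD, n = 3), a log2 change of 0.16 ± 0.060 (SE, edgeR adjusted p = 0.0347; 95% interval by limma voom 0.046 to 0.27). The change was 0.03 ± 0.052 with the GC and length trend removed (edgeR adjusted p = 0.669). The call was also lost when any library but pellet 1 was left out, with log2 fold changes of 0.15 to 0.18, and on the log2(TPM + 1) scale the change was 0.07 (limma adjusted p = 0.467).

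S-adenosylmethionine decarboxylase, Amd1, was lower in eluates. Amd1 had 129, 160.3 and 154 CPM in pellets 1 to 3 and, in eluates of those numbers, 97.1, 124 and 114 CPM. All eluates were below all pellets, and library 1 was the lowest of each group. The log2 fold change was -0.40 ± 0.10 (edgeR adjusted p = 0.00419; 95% interval by limma voom -0.64 to -0.18), from 148 ± 16.8 to 112 ± 13.6 CPM. With the GC and length trend removed the direction turned, to 0.35 ± 0.066 (edgeR adjusted p = 0.000104). Without both libraries numbered 3 it was -0.39 and not called (edgeR adjusted p = 0.0646).

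Both synthases were called, in opposite directions. Srm, which makes spermidine, had 207, 190.5 and 197 CPM in pellets 1 to 3 and, in eluates of those numbers, 306, 310.0 and 321 CPM. The eluates stood apart from the pellets by far more than either group's spread. The log2 fold change of Srm was 0.65 ± 0.064 (edgeR adjusted p = 8.15e-07; 95% interval by limma voom 0.52 to 0.79), from 198 ± 8.40 to 312 ± 7.81 CPM, the largest of the 9. It was 0.04 ± 0.053 with the GC and length trend removed (edgeR adjusted p = 0.629) and 0.21 ± 0.057 with the GC trend alone removed (edgeR adjusted p = 0.00276).

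Sms, which turns spermidine into spermine, had 104, 113 and 103 CPM in pellets 1 to 3 and, in eluates of those numbers, 89.8, 95.9 and 87.1 CPM. Its groups did not overlap, but the gap between the highest eluate and the lowest pellet was narrow. For Sms the change was -0.23 ± 0.074 (edgeR adjusted p = 0.0169; 95% interval by limma voom -0.39 to -0.071), from 106 ± 5.59 to 90.9 ± 4.55 CPM. The direction turned to 0.41 ± 0.066 with the GC and length trend removed (edgeR adjusted p = 1.28e-05). Without pellet 2, eluate 1 or eluate 3 the call was lost, with edgeR adjusted p of 0.089, 0.0637 and 0.079, and with upper quartile scaling the change was -0.14 (edgeR adjusted p = 0.131).

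Of the antizymes, Oaz1 passed the test and Oaz2 did not. Oaz1, the major antizyme, had 488, 464 and 436 CPM in pellets 1 to 3 and, in eluates of those numbers, 682, 733 and 699.7 CPM. The lowest eluate was well above the highest pellet. The log2 fold change of Oaz1 was 0.61 ± 0.066 (edgeR adjusted p = 2.17e-06; 95% interval by limma voom 0.47 to 0.74), from 462 ± 25.9 to 705 ± 26.2 CPM. It was 0.06 ± 0.052 with the GC and length trend removed (edgeR adjusted p = 0.442) and 0.29 ± 0.059 with the GC trend alone removed (edgeR adjusted p = 0.000157).

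Oaz2, a second antizyme with the same kind of shift site, had 117, 119 and 113 CPM in pellets 1 to 3 and, in eluates of those numbers, 121, 138 and 134 CPM. All eluates were above all pellets, eluate 1 only just. On library totals alone the order of pellet 1 and eluate 1 turned, with Oaz2 at 122.3 and 121.6 CPM, and the groups overlapped. The change on the log2 scale was 0.17 ± 0.073 (edgeR adjusted p = 0.0659; 95% interval by limma voom 0.0061 to 0.32), from 117 ± 3.17 to 131 ± 8.78 CPM, so the message did not pass the test. It passed with upper quartile scaling, at 0.26 (edgeR adjusted p = 0.00756), and without pellet 1 or eluate 1, at 0.17 and 0.22 (edgeR adjusted p = 0.0359 and 0.0343). Its sign turned, to -0.07, with the GC and length trend removed (edgeR adjusted p = 0.415).

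Azin1, antizyme inhibitor, resembles ornithine decarboxylase in sequence but has no decarboxylase activity, and its message is known for an upstream coding region that limits its translation. Azin1 had 158, 181 and 178 CPM in pellets 1 to 3 and, in eluates of those numbers, 128, 138 and 136 CPM. The groups were apart, with pellet 1 lowest among pellets. On the log2 scale Azin1 was at -0.36 ± 0.072 (edgeR adjusted p = 0.000571; 95% interval by limma voom -0.52 to -0.20), from 172 ± 12.4 to 134 ± 5.13 CPM. With the GC and length trend removed it was 0.66 ± 0.067 (edgeR adjusted p = 3.14e-08), the largest difference between the fits among the members. Azin1 also had the lowest GC content of the 9, 39.6%, and the longest transcripts.

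The catabolic enzymes also differed in call. Sat1, the acetyltransferase that marks spermidine and spermine for export or oxidation, had 76.5, 84.2 and 80.3 CPM in pellets 1 to 3 and, in eluates of those numbers, 72.3, 83.5 and 81.8 CPM. The groups overlapped throughout. Sat1 had a log2 fold change of -0.02 ± 0.081 (edgeR adjusted p = 0.839). Its 95% interval by limma voom, -0.20 to 0.15, holds only for the libraries as deposited, with no trend removed. With the GC and length trend removed it was 0.22 ± 0.070 (edgeR adjusted p = 0.0145).

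Smox, the oxidase that turns spermine back to spermidine, was the least abundant of the 9, at 119 to 301 estimated counts a library. Smox had 21.2, 18.4 and 15.9 CPM in pellets 1 to 3 and, in eluates of those numbers, 24.6, 27.4 and 28.7 CPM. All eluates were above all pellets. On the log2 scale Smox was at 0.53 ± 0.13 (edgeR adjusted p = 0.00206; 95% interval by limma voom 0.26 to 0.80), the widest error of the members. It was 0.08 ± 0.11 with the GC and length trend removed (edgeR adjusted p = 0.593), and 0.31 on the log2(TPM + 1) scale (limma adjusted p = 0.0551). The 95% intervals of 8 members, all but Sat1, did not hold 0, beside 58.0% of all genes tested.

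**Figure D2:**
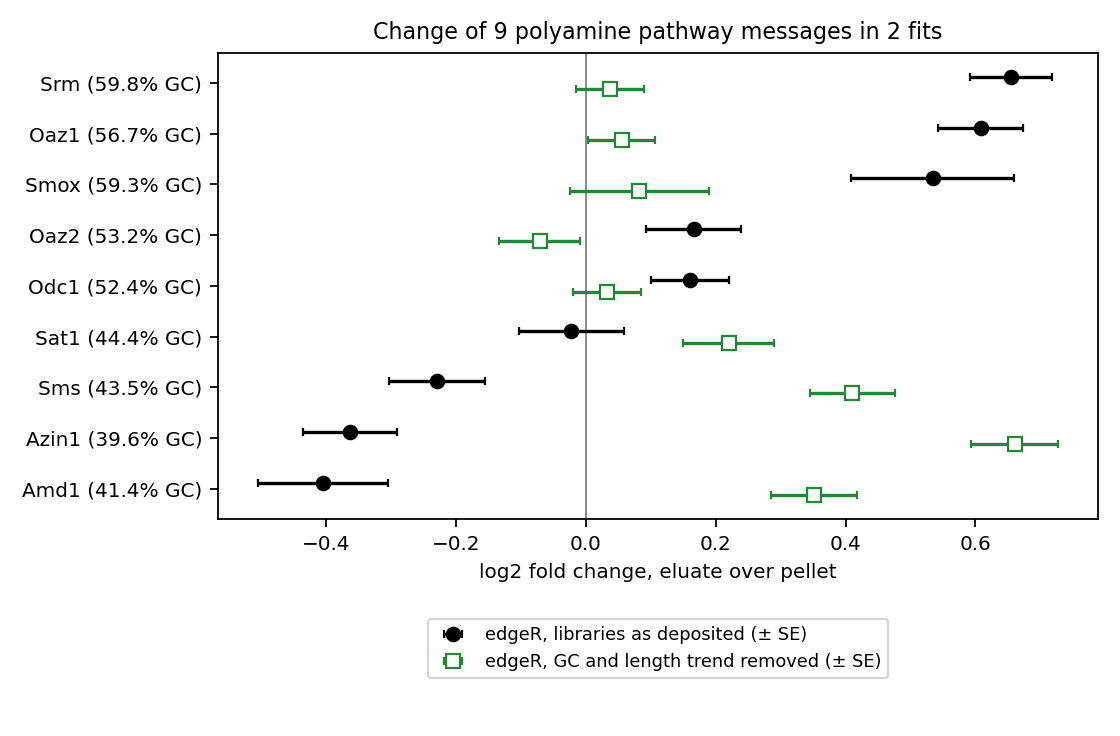
Log2 fold change, eluate over pellet, of the 9 messages with the GC content of each beside its name; filled circles are the libraries as deposited and open squares the fit corrected for GC content and length (bars: SE). Azin1, Amd1 and Sms lie below 0 in the first fit and above it in the second, while Srm, Oaz1 and Smox lie above 0.5 in the first and near 0 in the second.

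Transcript composition ordered the members much as the change did. GC content was 59.8% for Srm, 59.3% for Smox, 56.7% for Oaz1, 53.2% for Oaz2, 52.4% for Odc1, 44.4% for Sat1, 43.5% for Sms, 41.4% for Amd1 and 39.6% for Azin1, where the median gene tested had 50.9%. The coding regions followed a similar order, from 58.8% in Srm and 59.9% in Oaz1 to 40.1% in Azin1. The 3′ untranslated regions of the members that were lower were long, with 2937 nucleotides in Azin1, 2285 in Sms and 1874 in Amd1. Those of Srm, Oaz1, Smox and Odc1 were 315, 289, 306 and 336 nucleotides, and the median gene had 955. The members without a call did not follow this order. Oaz2, at a change of 0.17, had 1078 nucleotides, and Sat1, at -0.02, had 368. Length and change had a Spearman rho of -0.73 over the 9, and GC content and length of -0.70, so these properties cannot be told apart over the members.

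**Figure D3:**
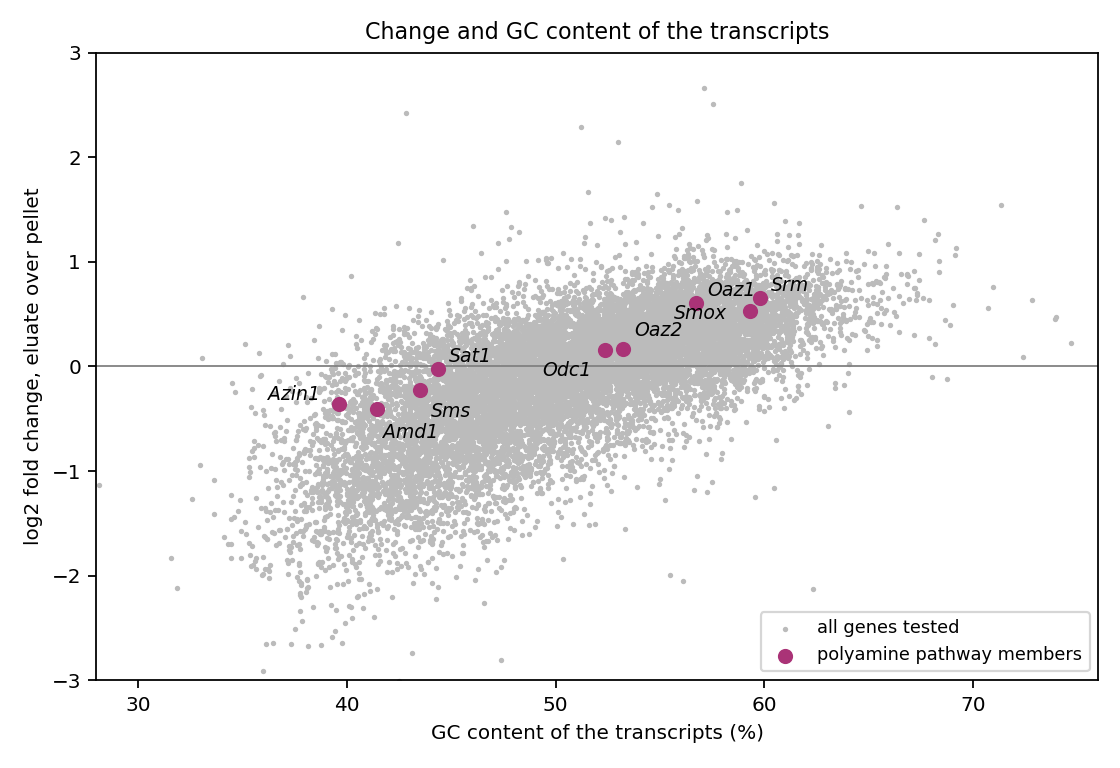
Log2 fold change, eluate over pellet, against the GC content of each gene's transcripts for all 13231 genes tested (grey) and the 9 members (purple); 9 genes lie beyond the drawn range. Members with low GC content sit at or below 0 and those with high GC content above it, inside the cloud of all genes or, for Azin1, at its upper side.

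Upstream start codons were present in the 5 members of lowest GC content and in none of the other 4. In the main transcript, the 5′ untranslated region held 4 ATG triplets in Sms, 3 in Azin1, 2 each in Odc1 and Sat1, and 1 in Amd1. Those of Oaz1, Oaz2, Srm and Smox held 0. So 5 of 9 members had one, beside 48.3% of the 12233 tested genes with a coding main transcript. The 5 included the 3 members that were lower, Odc1, which was higher, and Sat1, which had no call. An ATG in this region is a description of the letters and not a translated frame, and Azin1's upstream coding region is known to begin at another codon.

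Per transcript length, the members spanned a wide range of levels in TPM, in the same order in both fractions. Oaz1 was highest, at 573 ± 63.4 TPM in pellets and 806 ± 20.6 TPM in eluates (SD, n = 3). Odc1 followed at 335 ± 24.6 and 351 ± 6.18 TPM, and Srm at 176 ± 18.0 and 253 ± 6.99 TPM. The message of the enzyme was thus less abundant per length than that of its antizyme in each of the 6 libraries.

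Sat1 had 91.3 ± 3.96 TPM in pellets and 87.9 ± 6.15 TPM in eluates, and Oaz2 had 71.1 ± 5.77 and 74.3 ± 4.27 TPM. Amd1 had 53.8 ± 1.07 and 40.6 ± 4.19 TPM, and Azin1 45.6 ± 1.49 and 35.6 ± 0.720 TPM. In eluates these last neighbours overlapped, with Amd1 between 35.9 and 44.0 TPM and Azin1 between 34.8 and 36.2 TPM. Sms, at 34.1 ± 2.53 and 28.7 ± 0.927 TPM, and Smox, at 10.3 ± 1.26 and 13.0 ± 0.831 TPM, were lowest. No other neighbours in the order overlapped in either group.

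The 9 messages together made up 0.194% ± 0.00756 of the matched estimated counts in pellets and 0.232% ± 0.00726 in eluates (SD, n = 3). The pellet values were 0.202%, 0.190% and 0.188% and the eluate values 0.224%, 0.236% and 0.237%, without overlap. Odc1 and Oaz1 held most of both sums, so the shares describe these messages more than the other 7.

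Ratios between members within a library do not depend on how libraries are scaled. For 6 pairs chosen by role, a two-sided exact permutation test of 3 against 3 libraries gave p = 0.1 each time, the smallest it can give, and 0.1 after Benjamini-Hochberg adjustment over the 6. No pair can therefore pass a threshold of 0.05, and the sizes are given as measured. Every pair had eluate and pellet ratios that did not overlap, where 60.3% of single genes did not overlap in CPM. The share over other pairs of genes was not counted, and the ratios restate the members' counts.

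The count of Odc1 to that of its antizyme Oaz1 was 1.32, 1.39 and 1.49 in pellets and 1.04, 0.990 and 1.05 in eluates, a log2 difference of -0.45. Srm to Sms was 2.00, 1.69 and 1.92 in pellets and 3.40, 3.23 and 3.69 in eluates, a log2 difference of 0.88 and the largest of the 6. The spermidine synthase message was thus more abundant relative to the spermine synthase message in eluates. Odc1 to its homolog Azin1 was 4.06, 3.57 and 3.65 in pellets and 5.51, 5.25 and 5.41 in eluates, a log2 difference of 0.52. The remaining log2 differences were 0.44 for Oaz1 to Oaz2, -0.56 for Amd1 to Odc1 and -0.57 for Sat1 to Smox. With TPM in place of counts each kept its sign, from -0.48 for Amd1 to Odc1 to 0.77 for Srm to Sms. These ratios set messages of different GC content against each other, and what that contributes was not tested.

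Most members rested on 1 transcript. Tested by transcript, 3 member transcripts were higher (Srm-201, Oaz1-207 and Odc1-201), beside 11.8% of 19684 transcripts tested, and 3 were lower (Azin1-201, Azin1-203 and Sms-201), beside 14.3%. The other member transcripts tested, all without a call, were Oaz1-203, Oaz2-206, Amd1-201, Sat1-201, Sat1-202, Smox-201, Smox-202 and Smox-207. Azin1 was the member whose counts were split evenly. Azin1-201 held 54.1% ± 1.33 of the Azin1 counts in pellets and 53.8% ± 2.76 in eluates, and the other transcript, Azin1-203, had nearly the same change, -0.36 ± 0.089 against -0.38 ± 0.078 (edgeR adjusted p = 0.0315 and 0.0171). Amd1-201 had -0.41 ± 0.12 by transcript and did not pass (edgeR adjusted p = 0.0554). Srm-201 and Oaz1-207 kept their calls with each library left out in turn, while the other transcript calls were fragile. Without pellet 2, pellet 3 or eluate 1, 0 transcripts of the lower members were called, and without eluate 2 or eluate 3, 1 was. Odc1-201 was called without pellet 1 (edgeR adjusted p = 0.0398) but lost its call when any other library was left out. Over all transcripts the lower calls likewise fell from 2806 to 1835, 1738 and 1919 without pellet 2, pellet 3 and eluate 1.

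Sat1 is known for an exon whose inclusion sends the message to nonsense-mediated decay. All Sat1 transcripts matched here were classed as protein coding, so the share of such a form was not analysed here. Sat1-202, a shorter coding form, held 0.526%, 0.563% and 4.72% of Sat1 counts in the 3 pellets, and the 3 eluates gave 1.79%, 3.49% and 2.24%. Pellet 3 stood apart from the other pellets. Smox counts were spread over 9 transcripts, of which Smox-201 held 63.1% ± 16.3 in pellets and 66.9% ± 2.46 in eluates, and no Smox transcript passed the test on its own.

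Several members have near copies elsewhere in the genome, with which estimated counts can be exchanged. A search for genes sharing at least 100 stretches of 31 bases with a member listed 31 genes, 12 of them with any count, and no stretch was shared between members themselves. Amd1 was the most exposed, with copies holding 22.9% to 27.9% of the combined counts, nearly all in Amd2, which shares 90.9% of its stretches with Amd1. Amd2 had a log2 fold change of -0.22 ± 0.094 (edgeR adjusted p = 0.0659), and with the copies added Amd1 was at -0.35 ± 0.088 (edgeR adjusted p = 0.00335).

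Odc1 copies held 14.8% to 16.0% of the combined counts, mainly the processed pseudogene Gm7993, at 119 ± 1.98 CPM in pellets and 131 ± 5.47 CPM in eluates. Gm7993 was at 0.13 ± 0.068 (edgeR adjusted p = 0.110), close to Odc1 itself, and Odc1 with its copies added was at 0.16 ± 0.060 (edgeR adjusted p = 0.0387). Copies of Oaz1 and Sms held at most 1.47% and 1.54%. Those of Oaz2 and Sat1 had 0 counts, and none were listed for Azin1, Srm or Smox. Which copies truly gave rise to reads was not tested.

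The authors' deposited table, which holds 4892 genes with an adjusted p of at most 0.0499, lists 3 of the 9 members. In the authors' deposited table Oaz1 has a log2 fold change of 0.58 ± 0.076 (adjusted p = 3.98e-13), Srm 0.61 ± 0.083 (adjusted p = 3.96e-12) and Azin1 -0.27 ± 0.092 (adjusted p = 0.0103). Their signs are those given above for the libraries as deposited. Odc1, Amd1, Sms and Smox, which passed the edgeR test here, are not among the genes of the authors' deposited table.

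Genes most like each of 4 members over the 6 libraries were found by the distance between log2 CPM values centred on each gene's mean. Nearest to Odc1 were Npm3, a nucleolar chaperone gene, at a distance of 0.023, and Krt17 at 0.036. Among the nearest to Oaz1 was Cox19, at 0.058. Azin1 had Rpl4, a ribosomal protein gene, at 0.053 and Ttc13 at 0.058, and Amd1 had Brwd1 at 0.066 and Rbm7 at 0.074. No member was among these nearest genes of another.

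Of 31 other genes of the pathway and its supply, 26 were tested; 13 were higher in eluates, 5 lower and 8 had no call, beside the 24.5% and 28.2% of all genes, with a median log2 fold change of 0.28. The 5 genes that did not pass the filter, Arg1, Agmat, Oaz3, Satl1 and Mat1a, had at most 36 estimated counts over a group. With the GC and length trend removed, 11 were higher and 1 lower, beside 19.0% and 15.8% of all genes, with a median of 0.17.

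Spermidine's best known use is the hypusine modification of the translation factor eIF5A. Its gene Eif5a, the most abundant message of the lists at 2054 ± 150.0 CPM in pellets and 3220.1 ± 68.6 CPM in eluates, was higher by 0.65 ± 0.067 on the log2 scale (edgeR adjusted p = 1.46e-06). It was also higher with the GC and length trend removed, at 0.22 (edgeR adjusted p = 0.0017). The hypusine enzymes Dohh and Dhps, named after their values were seen, were higher by 0.68 and 0.45. With the trend removed Dohh was at 0.02 and Dhps at -0.0043, neither called (edgeR adjusted p = 0.861 and 0.974). The less abundant paralog Eif5a2 was lower, at -0.87 ± 0.14 (edgeR adjusted p = 6.72e-05), and at 0.26 with the trend removed (edgeR adjusted p = 0.123). All 4 genes of this list were called, 3 higher and 1 lower, where 52.7% of all genes were called in either direction. With the trend removed 1 was higher and 0 lower, beside 19.0% and 15.8% of all genes.

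In the list of arginine and ornithine supply, which also holds Azin2, 1 of 5 tested genes was higher and 2 were lower. Of all genes, 24.5% were higher and 28.2% lower. Azin2, a second antizyme inhibitor, was higher by 0.45 ± 0.15 (edgeR adjusted p = 0.0226), the opposite direction to Azin1, though at 15.5, 18.5 and 23.4 CPM in eluates 1 to 3 it was far scarcer. That call was lost without eluate 3, at 0.28 (edgeR adjusted p = 0.151). Slc7a3, an arginine transporter, was lower, at -0.58 ± 0.076 (edgeR adjusted p = 1.2e-05), and at -0.48 with the trend removed (edgeR adjusted p = 1.44e-06) it was the only gene of the lists that was lower in both fits. The related transporter Slc7a1, named after its values were seen, was at -0.32 (edgeR adjusted p = 0.00267), and at 0.01 with the trend removed (edgeR adjusted p = 0.912).

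In S-adenosylmethionine supply and methionine salvage, 5 of 8 tested genes were higher and 1 lower, beside 24.5% and 28.2% of all genes. With the GC and length trend removed 7 were higher and 0 lower, beside 19.0% and 15.8%. Mri1, an isomerase of the salvage of methylthioadenosine, the by-product of both synthases, was higher by 0.74 ± 0.100 (edgeR adjusted p = 1.62e-05), and at 0.71 with the trend removed (edgeR adjusted p = 1.29e-07). Adi1, Apip and Enoph1, further enzymes of that salvage named after their values were seen, were higher by 0.49, 0.41 and 0.37 and were also called with the trend removed, at 0.64, 0.29 and 0.22. Mtap, the first enzyme of that salvage and also named after its values were seen, was at -0.02 with no call (edgeR adjusted p = 0.828), and at 0.35 with the trend removed (edgeR adjusted p = 0.000465). Mat2a, which makes S-adenosylmethionine, was lower, at -0.53 ± 0.064 (edgeR adjusted p = 6.5e-06), and at -0.07 with the trend removed (edgeR adjusted p = 0.414). Ahcy, the most abundant gene of this list, was at 0.25 ± 0.081 (edgeR adjusted p = 0.015), a call lost without pellet 2, pellet 3 or eluate 1. Ahcy was at 0.19 with the trend removed (edgeR adjusted p = 0.0174).

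Of 6 transport genes 3 were higher and 1 lower, beside 24.5% and 28.2% of all genes. The lysosomal polyamine exporter Atp13a2 was higher by 0.66 ± 0.11 (edgeR adjusted p = 8.71e-05), and its relative Atp13a3 lower, at -1.15 ± 0.13 (edgeR adjusted p = 2.52e-05). With the trend removed they were at 0.30 (edgeR adjusted p = 0.00363) and 0.08 (edgeR adjusted p = 0.424). Slc3a2 was at 0.22 ± 0.080 (edgeR adjusted p = 0.033), a call lost without pellet 2, pellet 3, eluate 1 or eluate 3. Of 3 tested genes of other polyamine metabolism, the oxidase Paox was higher by 0.31 ± 0.097 (edgeR adjusted p = 0.0143), a call lost without pellet 2 or eluate 3. Paox was at 0.08 with the trend removed (edgeR adjusted p = 0.497), and Amd2 and Sat2 had no call in the libraries as deposited.

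**Figure D4:**
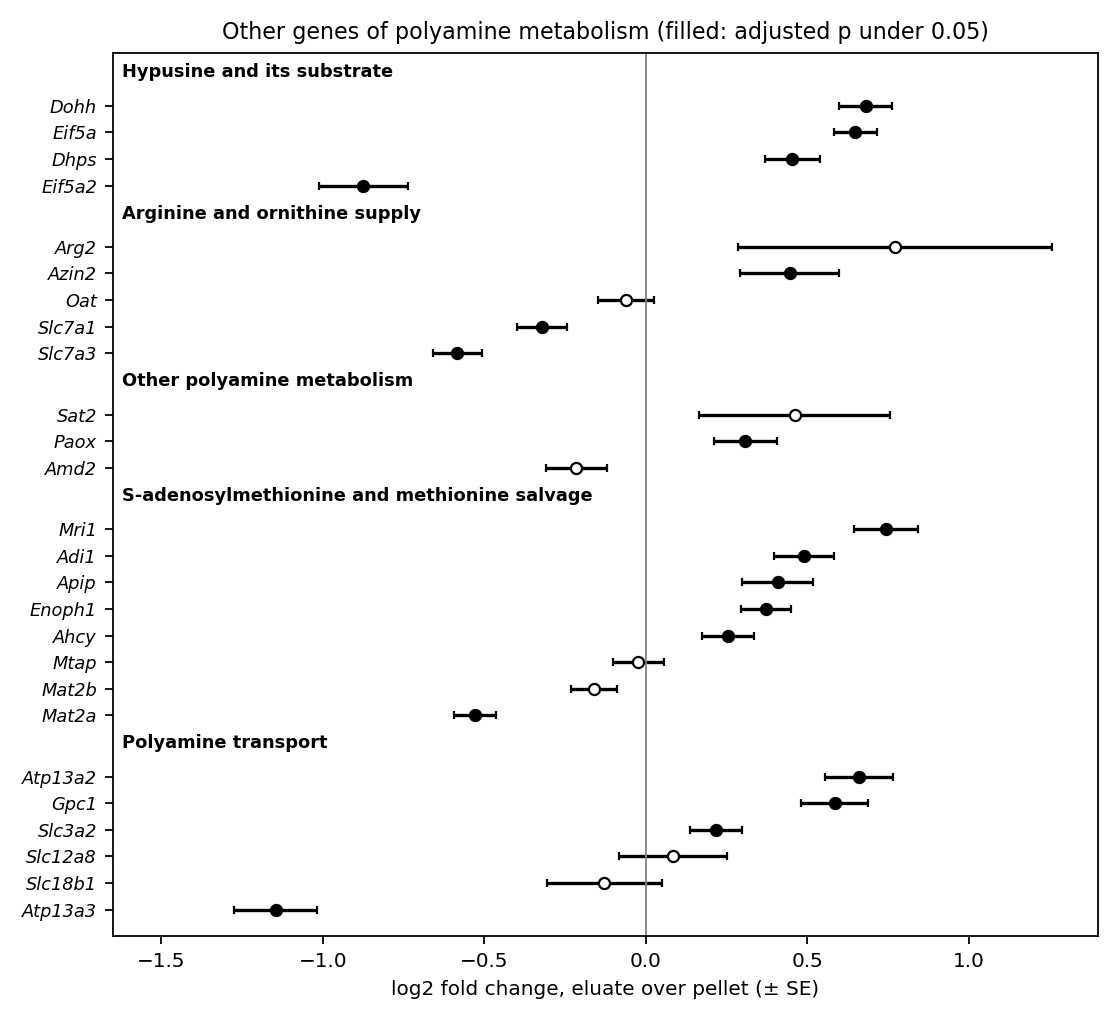
Log2 fold change, eluate over pellet (points, with SE as bars), of the 26 tested genes of 5 further lists of polyamine metabolism; filled points passed the edgeR test at an adjusted p under 0.05. The salvage genes lie mostly above 0, and Atp13a3, at -1.15, is the lowest.

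The libraries held 7.84e+06 to 1.16e+07 estimated counts, and their log2 CPM values had correlations over genes of 0.978 to 0.987 in a group and 0.940 to 0.967 across groups. All 9 stem cell markers were tested, with a summed level of 11521 to 12911 TPM in pellets and 15331 to 15392 TPM in eluates. Of these, 4 were higher, 2 lower and 3 had no call, beside 24.5% and 28.2% of all genes called higher and lower. Their median log2 fold change was -0.055. Dppa5a and Pou5f1, the most abundant of them by CPM, were both higher. Sox2 and Zfp42 were lower, at -0.29 and -0.21 (edgeR adjusted p = 0.00329 and 0.0229). Fibroblast markers were low, with 2 of 6 tested and summed levels of 6.14 to 9.39 and 9.45 to 12.5 TPM, and differentiation markers summed to 8.06 to 9.59 and 8.22 to 9.07 TPM with 5 of 6 tested. Of the fibroblast markers, Postn was listed at 0 counts in all 6 libraries. Thy1 was present at 10.6 CPM in pellets and 17.3 CPM in eluates, higher by 0.70 (edgeR adjusted p = 0.0013). Pdgfrb, at 2.09 and 2.10 CPM, had no call. Of the tested differentiation markers, Sox17 was higher by 1.05 (edgeR adjusted p = 0.0195), at 1.17 CPM in pellets and 2.40 CPM in eluates, and 4 had no call.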

How the data were processed

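The members and gene lists were chosen with earlier results of these data known. Per the submitters' processing notes the build was GRCm39 and the tools were DESeq2 1.44.0, Salmon 1.10.3, STAR 2.7.11b and cutadapt 4.7; which step each tool served is not given there. Each library's file holds, per the file headers, the authors' Salmon output: an estimated count, TPM, a length and an effective length for each transcript. The authors' deposited table holds, per its file header, a mean normalized count as signal, log2 fold changes, a Wald score and p-values.

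Identifiers of 84226 transcripts were looked up in GENCODE mouse release 21, and 76858 matched. The other 7368 held 1.63% to 2.35% of a library's counts and were left out. That release describes an older genome build and served for names, sequences, GC content and lengths, so no coordinates are printed. Estimated counts were summed by gene, rounded and tested with edgeR 4.0.16 in R 4.3.3 (robust quasi-likelihood fit, TMM factors, default filter, Benjamini-Hochberg adjustment, threshold 0.05). CPM are scaled with those factors. Intervals at 95% came from limma 3.58.1 (voom). Trend removal used splines with 5 degrees of freedom as offsets. DESeq2 1.42.0, other scalings and filters, a replicate block, TPM with limma, and leaving out libraries were alternatives; the tests were also tested on simulated data. Adding copies found by shared stretches, and CPM without TMM factors, were chosen after seeing the data. The wider lists' named genes are, per list, those with the smallest p in each direction and the most abundant; likeness took the 2 nearest named genes with at least 10 CPM, of which 1 is not reported here.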

Additional observations from a re-analysis of the deposited data

How the results depend on the processing

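Of the 9 members, 4 were higher and 3 lower, beside 3241 and 3736 of 13231 genes tested. Leaving out libraries gave 2 to 5 members higher and 1 to 3 lower, 2 and 1 without both libraries numbered 3. Over all genes it gave 1949 to 3722 higher and 2662 to 4039 lower. Without both libraries numbered 3 these were 1949 and 2662 of 13451 genes tested. Limma on log2(TPM + 1) or log2(TPM + 0.1) gave 2 members higher, beside 1912 and 1889 of 13231 genes. With the GC and length trend removed, the GC trend alone removed, or the former with a replicate block, 0 members were lower. Over all genes 2095, 2502 and 2087 were lower. In those 3 fits, in that order, Azin1 turned to 0.66, 0.56 and 0.66, Amd1 to 0.35, 0.38 and 0.35, Sms to 0.41, 0.39 and 0.41, Sat1 to 0.22, 0.52 and 0.22, Amd2 to 0.56, 0.59 and 0.56, and Eif5a2 to 0.26, 0.11 and 0.26. In the GC and length fits without and with the block, Oaz2 turned to -0.071 and -0.072, Atp13a3 to 0.077 and 0.077, Azin2 to -0.020 and -0.031, and Slc3a2 to -0.087 and -0.085; the cause was not tested. The wider lists then had 1, 3 and 1 lower genes in place of 5. Sat1, without a call, was at 0.069 with upper quartile factors, at 0.022 with an effective-length offset and at -0.061 to 0.043 with libraries left out. Upper quartile factors moved the median of all genes to 0.09. Counting both lost calls and turned directions, the calls of Odc1, Sms, Smox, Amd1 and Azin1 ended under 12, 12, 6, 4 and 3 of 28 alternatives, and those of Oaz1 and Srm under 2 each.

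Same-numbered libraries deviated together with correlations of 0.070, 0.151 and -0.010 across genes. The main fit did not pair libraries by number, since no label says that a number marks portions of the same pellet. Fits with a replicate block were alternatives, and whether same-numbered libraries share a pellet was not tested. With the replicate block alone the members' calls were 4 higher and 3 lower, and 3306 and 3770 of all genes; library 2 was the number for which both libraries correlated best with their own. By transcript, Amd1-201 passed with the block (edgeR adjusted p = 0.0215), while Odc1-201 (0.0753) and Azin1-203 (0.0637) did not. Lower member transcripts numbered 0 to 3 with a library left out. By TPM the members made up 0.139% of pellets and 0.169% of eluates, Azin1-201 50.8% and 50.6% of Azin1, and Sat1-202 3.51% of Sat1 in eluates. Smox, at 119 counts in the smallest case, is the member whose depth limits precision most.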
